A study of Mus musculus with 11 samples.

Results

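The Ifit genes and the Isg15 system are groups of antiviral genes that interferon switches on, and 10 of them were followed here in hematopoietic stem cells of the mouse (HSCs), which renew the blood from the marrow. The 10 genes were the RNA-binding genes Ifit1, Ifit2, Ifit3 and Ifit1bl1, the exonuclease gene Isg20, and Isg15, Uba7, Ube2l6, Herc6 and Usp18, which make and handle the Isg15 modifier. They were listed by name, and each of the 10 had exactly 1 probe set assigned to a single gene, out of 22180 genes with such a probe set. Total RNA of HSCs sorted from injected mice was hybridised to 11 Affymetrix arrays.

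The RApIC group (3 arrays) received ATRA (all-trans retinoic acid, a signalling form of vitamin A) and then polyIC, a synthetic double-stranded RNA that imitates viral RNA. The pIC group (2 arrays) received polyIC, the ATRA group (3 arrays) received ATRA, and the PBS group (3 arrays) received buffered saline. The sources used here give no sorting gate, dose, time, strain or age. Nor do they say that replicates came from separate mice, so p-values reflect the spread among these arrays alone, which may be technical, and the number of arrays limits the precision. The authors deposited log2 intensities, and the median of an array lay between 6.19 and 6.28. Intensities of different probe sets are not comparable, so levels are not compared between the 10 genes.

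Type I interferon acts through a receptor and the kinases Jak1 and Tyk2 on transcription factors, Stat2 and Irf9 among them, that bind interferon-stimulated response elements in promoters. Ifit proteins bind RNA, and Ifit1 holds back translation of RNA whose cap lacks the methylation of host messages. Isg15 is a ubiquitin-like protein that Uba7 activates, Ube2l6 carries and Herc6, the main Isg15 ligase in mice, joins to other proteins. Usp18 removes Isg15 again and, apart from that, dampens the type I interferon receptor.

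Promoter sequences are shown for those of the 10 genes, and for Ifit3b, that hold runs of the interferon-response type in front of their start. They come from RefSeq (GRCm38.p6), read 5′ to 3′ on the gene's strand, with capitals marking the motif GAAANNGAAA, which reads TTTCNNTTTC on the other strand. Both strands of a window of 300 bases, from 250 before to 50 after each start, were searched, and overlapping matches were counted. Of 32851 windows, 1131 (3.44%) held the motif. The Isg15 promoter, on the minus strand, held 3 overlapping matches in 1 run.
Isg15 chr4:156200819-156200938: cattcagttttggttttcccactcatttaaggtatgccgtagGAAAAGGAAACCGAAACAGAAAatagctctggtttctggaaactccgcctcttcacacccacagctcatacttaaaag
The Ifit1 promoter, on the plus strand, held 2 matches, shown here in 1 stretch. They lie in the 145 bases between its start and 1 of the 2 listed starts of Ifit1bl2, which is transcribed the other way, so the windows of both genes hold them. The annotated span of Ifit1bl2 ends 62 bases before Ifit1, past this start, so the matches lie inside that span.
Ifit1 chr19:34640785-34640814: TTTCACTTTCcagtctcagTTTCAGTTTCt

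Ifit3 and its near copy Ifit3b, both on the plus strand, each held 2 matches with the same flanking bases, and their windows shared an identical run of 169 bases.
Ifit3 chr19:34583363-34583392: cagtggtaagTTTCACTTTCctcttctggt
Ifit3b chr19:34607759-34607788: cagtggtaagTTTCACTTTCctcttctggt
Ifit3 chr19:34583397-34583426: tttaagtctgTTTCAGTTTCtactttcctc
Ifit3b chr19:34607793-34607822: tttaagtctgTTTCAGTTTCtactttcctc
Ifit1bl1, on the minus strand, held 1 match at each of 2 annotated starts, in nearly the same flanks.
Ifit1bl1 chr19:34599431-34599460: actctgtaggTTTCATTTTCtgtaagttgg
Ifit1bl1 chr19:34602053-34602082: actctgtaggTTTCATTTTCtgtaggttgg
In all, 4 of the 9 genes with a window (all but Usp18) held a match, as did 16 of 29 other type I interferon targets. A gene can have several windows. Counted by window, 5 of the 13 windows of these genes held a match, against 3.44% of all windows. No match lay in the windows of Ifit2, Isg20, Uba7, Ube2l6 and Herc6, and a match here is a description of letters, not a shown binding site. Whether a match goes with the size of a gene's change was not tested.

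Every one of the 10 genes read higher in polyIC-treated HSCs, and for 9 of them the change passed the test in pIC against PBS, in RApIC against ATRA and in RApIC against PBS. Each change is given as the log2 difference of group means with its standard error (± SE), from limma fitted to all 11 arrays, and "called" means an adjusted p (Benjamini-Hochberg, over 22180 genes) under 0.05. The SE of a gene rests on a spread shared by all groups, so a wide spread in 1 group also widens comparisons without that group. The averaged pIC effect is the mean of the pIC minus PBS and the RApIC minus ATRA difference. The largest averaged effects among the 10 were those of Ifit1bl1, an Ifit1-like gene (18.2-fold), Usp18 (12.3-fold), Isg15 (9.73-fold) and Ifit1 (8.66-fold). The smallest were those of Uba7 (1.69-fold) and Ifit3 (1.24-fold). In bulk RNA, more cells of a type and more RNA per cell cannot be told apart.

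Ifit1 lies on chromosome 19 from 34640889 to 34650009 (GRCm38.p6). Its log2 intensity was 11.44, 9.76 and 11.07 on RApIC replicates 1, 2 and 3, 11.19 and 11.40 on the pIC arrays, 7.87, 8.23 and 7.65 on the ATRA arrays, and 7.99, 7.83 and 7.90 on the PBS arrays. All 5 arrays with polyIC lay above all 6 without it, and RApIC replicate 2 lay lowest of the 5. Ifit1 rose in pIC against PBS by 3.39 ± 0.38 (10.5-fold) and in RApIC against ATRA by 2.84 ± 0.34 (7.17-fold).

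Ifit2, from 34550550 to 34576534 on the same chromosome, encodes a related RNA-binding protein. Its log2 values were 9.95, 8.99 and 9.78 in RApIC, 10.18 and 9.98 in pIC, 7.81, 7.88 and 8.10 in ATRA, and 8.41, 8.22 and 8.20 in PBS. All 4 groups stood apart without overlap, in the order pIC, RApIC, PBS and ATRA from high to low, although neither RApIC against pIC nor ATRA against PBS passed the test. Ifit2 rose in pIC against PBS by 1.80 ± 0.23 (3.48-fold) and in RApIC against ATRA by 1.64 ± 0.20 (3.12-fold).

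Ifit3, from 34583119 to 34588982, encodes a partner that stabilises Ifit1 in human cells. Its log2 intensity was 7.39, 7.26 and 7.23 in RApIC, 7.54 and 7.28 in pIC, 6.83, 6.96 and 7.16 in ATRA, and 6.81, 7.32 and 7.13 in PBS. RApIC and ATRA did not overlap, while PBS replicate 2 read as high as most arrays with polyIC. Ifit3 did not pass the test in pIC against PBS (0.32 ± 0.15, adjusted p 0.196) or in RApIC against ATRA (0.31 ± 0.14, adjusted p 0.217). It passed in the average of both (0.32 ± 0.10, adjusted p 0.047), and that call was lost on leaving out any 1 array but PBS replicate 2 or ATRA replicate 3. Its near copy Ifit3b read 6.07, 5.30 and 4.96 in RApIC, 5.60 and 5.83 in pIC, 4.86, 4.15 and 4.39 in ATRA, and 4.05, 4.96 and 4.52 in PBS. Ifit3b rose in the averaged pIC effect by 1.09 ± 0.22 (adjusted p 0.00535). How the probes share signal between these near-identical copies was not tested, so both values are uncertain.

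Ifit1bl1, annotated from 34592888 to 34662981, had the largest change of the 10. Its log2 intensity was 11.11, 7.88 and 10.38 in RApIC, 10.98 and 10.72 in pIC, 6.23, 6.09 and 6.03 in ATRA, and 6.34, 5.87 and 6.22 in PBS. The 5 arrays with polyIC lay above the other 6, but RApIC replicate 2 lay nearer to the arrays without polyIC than to the other 4. Ifit1bl1 rose in pIC against PBS by 4.70 ± 0.68 (26.1-fold) and in RApIC against ATRA by 3.67 ± 0.61 (12.7-fold), or by 4.62 ± 0.20 (24.6-fold) without RApIC replicate 2. Its annotated span runs across Ifit3b, Ifit1bl2 and Ifit1, so signal of these overlapping genes may not be separate. Ifit1bl2, transcribed the other way from Ifit1, read 6.43, 5.66 and 6.38 in RApIC, 6.26 and 6.63 in pIC, 5.89, 5.94 and 5.99 in ATRA, and 6.11, 5.71 and 5.58 in PBS. Its averaged pIC effect was 0.43 ± 0.15 (adjusted p 0.068), without a call, beside the change of 3.11 ± 0.25 in Ifit1.

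Isg20, on chromosome 7 from 78913396 to 78920396, encodes an exonuclease that degrades single-stranded RNA. On the log2 scale it read 10.83, 9.44 and 10.38 in RApIC, 10.46 and 10.63 in pIC, 8.24, 8.38 and 8.30 in ATRA, and 8.36, 8.24 and 8.50 in PBS. The arrays with and without polyIC did not overlap, and ATRA and PBS overlapped. Isg20 rose in pIC against PBS by 2.18 ± 0.30 (4.53-fold) and in RApIC against ATRA by 1.91 ± 0.26 (3.76-fold).

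The modifier gene Isg15, on chromosome 4 from 156199424 to 156200818, had a log2 intensity of 12.03, 10.35 and 11.70 in RApIC, 12.02 and 11.90 in pIC, 8.21, 8.52 and 8.16 in ATRA, and 8.70, 8.20 and 8.48 in PBS. The arrays with polyIC were again apart from the rest, with RApIC replicate 2 between the 2 sets. Isg15 rose in pIC against PBS by 3.50 ± 0.38 (11.3-fold) and in RApIC against ATRA by 3.06 ± 0.34 (8.37-fold).

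The enzymes that attach Isg15 had smaller log2 differences than Isg15 itself. Uba7, the activating enzyme gene on chromosome 9 from 107975567 to 107984056, read 12.52, 12.09 and 12.50 in RApIC, 12.55 and 12.47 in pIC, 11.70, 11.66 and 11.71 in ATRA, and 11.73, 11.59 and 11.73 in PBS. Ube2l6, the conjugating enzyme gene on chromosome 2 from 84798828 to 84810003, read 10.37, 9.63 and 10.14 in RApIC, 10.36 and 10.39 in pIC, 8.90, 8.86 and 8.82 in ATRA, and 8.81, 8.69 and 8.86 in PBS. Both genes read higher on every array with polyIC than on any without it. Herc6, the ligase gene on chromosome 6 from 57580992 to 57665136, read 11.65, 10.67 and 11.27 in RApIC, 11.51 and 11.52 in pIC, 9.76, 9.89 and 9.75 in ATRA, and 9.73, 9.65 and 9.76 in PBS, likewise without overlap. In pIC against PBS, Uba7 rose by 0.83 ± 0.12 (1.77-fold), Ube2l6 by 1.59 ± 0.17 (3.01-fold) and Herc6 by 1.80 ± 0.21 (3.49-fold). In RApIC against ATRA, Uba7 rose by 0.68 ± 0.11, Ube2l6 by 1.19 ± 0.15 and Herc6 by 1.40 ± 0.19. These differences in size between the genes were not tested, and probe sets differ in how far their signal follows RNA.

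Usp18, the gene of the enzyme that removes Isg15, lies on chromosome 6 from 121245906 to 121270917. It read 12.02, 10.13 and 11.64 in RApIC, 11.89 and 11.93 in pIC, 7.93, 7.79 and 7.79 in ATRA, and 8.13, 8.05 and 8.07 in PBS. All 5 arrays with polyIC lay above all 6 without it, and all ATRA arrays lay below all PBS arrays. Usp18 rose in pIC against PBS by 3.83 ± 0.40 (14.2-fold) and in RApIC against ATRA by 3.42 ± 0.36 (10.7-fold).

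**Figure D1:**
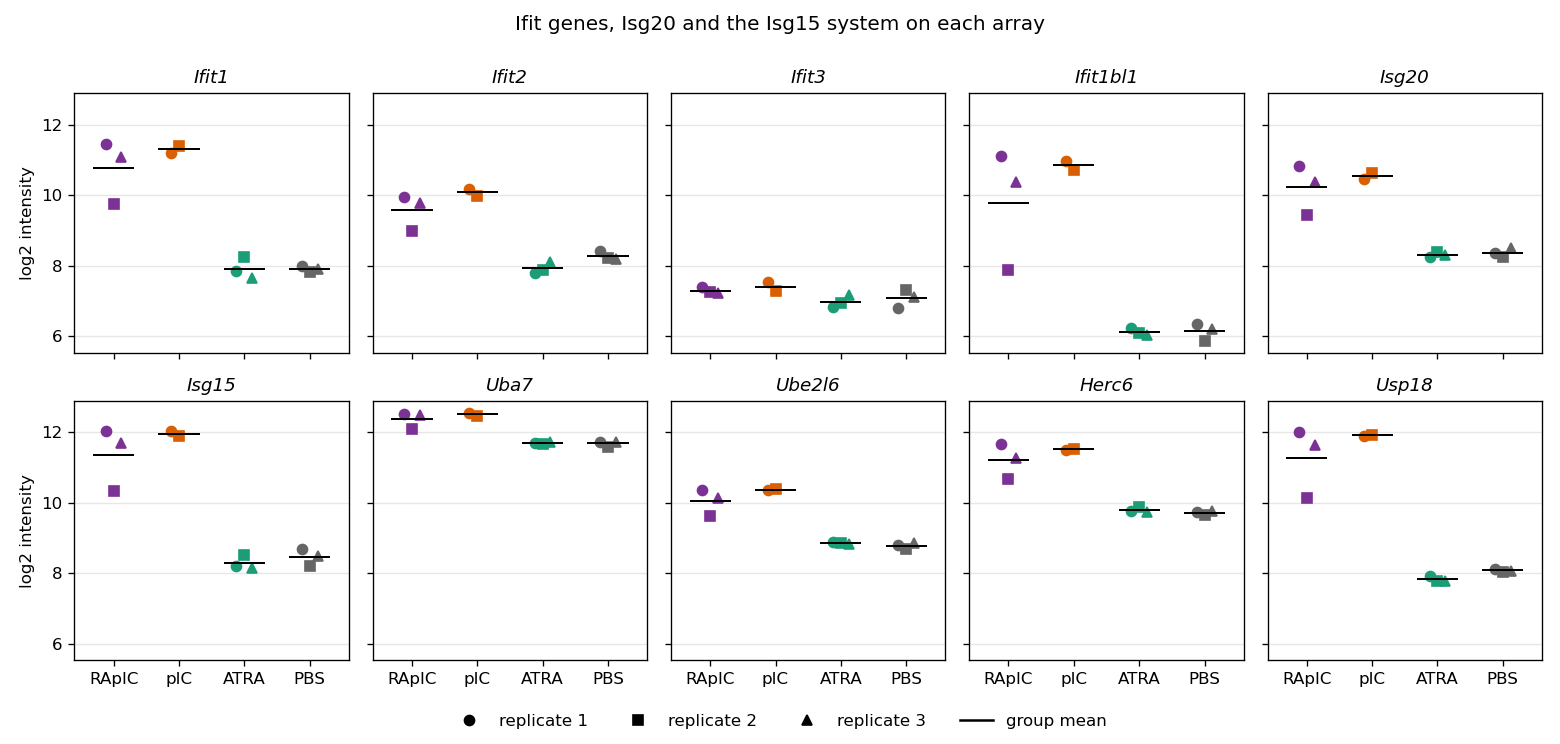
Log2 intensity (y axis) of the 10 genes in the RApIC (n = 3), pIC (n = 2), ATRA (n = 3) and PBS (n = 3) groups (x axis), with 1 point per array, marker shapes for replicate numbers and a line at the group mean; levels of different genes are not comparable. In every panel but that of Ifit3, RApIC and pIC arrays stand above ATRA and PBS arrays, and RApIC replicate 2 is the lowest of the 5 arrays with polyIC.

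In pIC against PBS, 9 of the 10 genes were called higher, against 8.94% of all genes tested, at adjusted p of 0.000805 to 0.00309, with a median log2 difference of 1.99 against 0.00 over all genes. In RApIC against ATRA, 9 of 10 were called higher, against 3.5% of all genes, at adjusted p of 0.0011 to 0.00801 and with a median of 1.78. In RApIC against PBS, 9 of 10 were called higher, against 1.61% of all genes, at adjusted p of 0.00196 to 0.0131 and with a median of 1.67. The last comparison shares its PBS arrays with the first and its RApIC arrays with the second. The number called in RApIC against PBS was 6 without PBS replicate 2 or without RApIC replicate 3, when Ifit2, Ifit1bl1 and Uba7 missed the threshold. In these settings 0.771% and 0.717% of all genes were called in either direction. The number was 2 in a fit of only these groups (0.316% of all genes). Groups that did not overlap, with polyIC higher, were found for 9 genes in pIC against PBS (23.4% of all genes), for 10 in RApIC against ATRA (11.7%) and for 9 in RApIC against PBS (9.82%).

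In the averaged pIC effect, all 10 genes were called higher, against 12.2% of all genes, with a median of 1.88. Among 22180 genes in order of that effect, Ifit1bl1 stood at place 5, Usp18 at 9, Isg15 at 15 and Ifit1 at 18. Isg20 stood at 52, Ifit2 at 86, Herc6 at 101, Ube2l6 at 123, Uba7 at 372 and Ifit3 at 1985.

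RApIC replicate 2 stood apart from the other 4 arrays with polyIC. It was the lowest of the 5 for 9 of the 10 genes, all but Ifit3. Its log2 intensity lay below the mean of the other RApIC arrays by 2.86 for Ifit1bl1, where the ratio was 0.138, by 1.70 for Usp18, by 1.52 for Isg15, by 1.49 for Ifit1 and by 0.42 for Uba7. It still lay above the highest ATRA or PBS array for the same 9 genes, by 0.36 for Uba7 and up to 1.99 for Usp18. The low reading was not particular to these genes. Of 202 genes called higher by more than 1 log2 unit in the averaged pIC effect, 199 (98.5%) had their lowest value with polyIC on that array. The 202 include those of the 10 genes that passed the same cut. The median of the 10 genes relative to their PBS means was 2.20, 1.02 and 1.79 on RApIC replicates 1, 2 and 3, 1.99 and 2.04 on the pIC arrays, between -0.09 and 0.00 on the ATRA arrays, and between -0.09 and 0.05 on the PBS arrays.

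The comparison of RApIC with pIC asks whether ATRA given before polyIC changes the response. None of the 10 genes was called, nor was any of 22180 genes (0%) by limma, while 10.1% of all genes had an unadjusted p under 0.05. With array weights in limma, 112 genes (0.505%) were called, and still none of the 10. All 10 read lower on average in RApIC, with log2 differences of -0.12 to -1.06, a median of -0.42 against -0.02 over all genes and adjusted p of 0.495 to 0.84. Ifit2 alone of the 10 had RApIC arrays wholly below the pIC arrays, a pattern found in that direction for 17.4% of all genes. Its difference was -0.50, with a 95% interval of -1.01 to 0.00. The interval of Ifit1bl1 was the widest, -2.56 to 0.44, and those of Isg15 (-1.44 to 0.24), Usp18 (-1.54 to 0.24) and Ifit1 (-1.37 to 0.29) also held 0. A difference within these bounds was not excluded by these arrays.

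Without RApIC replicate 2, the same differences lay close to 0. They were -0.11 for Ifit1bl1, -0.09 for Isg15, -0.08 for Usp18, -0.04 for Ifit1, -0.21 for Ifit2 and 0.06 for Isg20. Of the 10 genes, 9 were negative and 1 positive, with a median of -0.09 and 95% intervals lying between -0.60 and 0.39, and none was called (0% of all genes). The number of genes called in pIC against PBS, RApIC against ATRA and RApIC against PBS was 9 each without that array (with 10.8%, 6.98% and 5.48% of all genes called higher), and 9 in the averaged effect (14% called higher), where Ifit3 missed the threshold. The SE in pIC against PBS, a comparison without that array, was 0.68 for Ifit1bl1 and 0.40 for Usp18 with all arrays. Without RApIC replicate 2 it was 0.20 and 0.11.

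**Figure D2:**
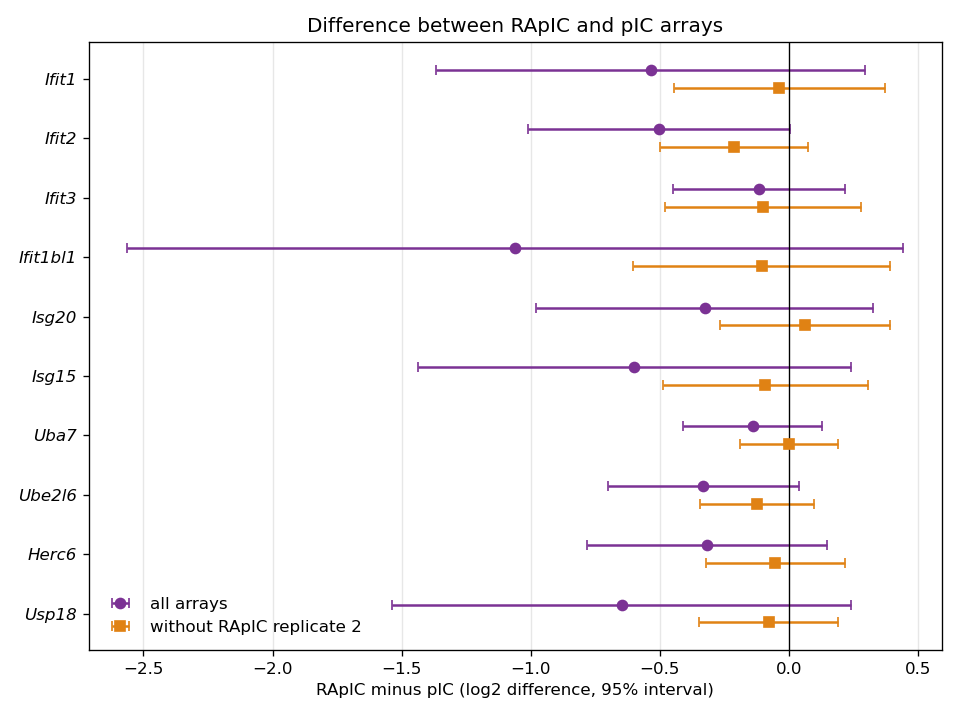
RApIC minus pIC difference in log2 intensity (x axis) of each of the 10 genes (y axis), with 95% intervals, from all 11 arrays (circles) and without RApIC replicate 2 (squares). All 10 differences lie below 0 with all arrays, from -0.12 to -1.06, and between -0.21 and 0.06 without that replicate.

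The comparison of ATRA with PBS asks what ATRA does without polyIC. None of the 10 genes was called, against 0.00451% of all genes (1 gene). The differences ran from -0.35 to 0.08, 6 of them negative and 4 positive, with adjusted p of 0.812 to 0.998. Ifit2 (-0.35, 95% interval -0.80 to 0.11) and Usp18 (-0.25, -1.04 to 0.55) had all ATRA arrays below all PBS arrays, as did 6.08% of all genes. The ATRA effect averaged over arrays with and without polyIC was negative for all 10, from -0.07 to -0.54, and none was called (0.0406% of all genes). The interval of Ifit2 in that average was -0.76 to -0.09, with an adjusted p of 0.348 over all genes. Without RApIC replicate 2, the averaged ATRA effect was negative for 7 genes and positive for 3, from -0.28 to 0.01. None was called there either (0.0271% of all genes).

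The interaction, which tests whether the polyIC response differs with ATRA, was negative for all 10 genes, from -0.02 for Ifit3 to -1.03 for Ifit1bl1, and called for none of them or of all genes (0%), with adjusted p of 0.808 to 0.994. An unadjusted p under 0.05 was found for 6.27% of all genes. Without RApIC replicate 2 it was positive for 5 genes and negative for 5, from -0.20 to 0.17.

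Other genes of the pathway were taken from lists of known function. Of the 39 further type I interferon targets with a probe set, 38 rose and 0 fell in the averaged pIC effect, where 12.2% of all genes were called higher, with a median of 1.71. Oas2, Oas3 and Oas1g, of the family whose members make a second messenger for RNA decay, rose by 3.28 ± 0.16, 2.93 ± 0.19 and 2.23 ± 0.14. Dhx58, an RNA sensor, rose by 2.04 ± 0.11. The target that did not pass was Ifi27 (-0.24 ± 0.22, adjusted p 0.51).

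Of 14 genes of type I interferon signalling, 5 rose and 2 fell, with a median of 0.14. Irf7, which amplifies interferon production, rose by 3.35 ± 0.15 (10.2-fold). Relative to the PBS mean, its log2 value was 3.44, 2.49 and 3.26 on the RApIC arrays, 3.44 and 3.40 on the pIC arrays, -0.26, -0.16 and -0.20 on the ATRA arrays, and -0.05, 0.15 and -0.10 on the PBS arrays. The arrays with polyIC thus stood apart from those without it, as for Isg15. Stat2 rose 4.01-fold and Irf9 by 0.90 ± 0.06. Irf2, which can repress interferon targets, fell by 0.31 ± 0.06 on the log2 scale.

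Genes of ubiquitin and of other ubiquitin-like modifiers had smaller averaged pIC effects than the Isg15 enzymes. Of 22 measured, 8 rose and 0 fell, with a median of 0.11. The ubiquitin hydrolase Uchl3 read highest (0.66 ± 0.17, a call lost without pIC replicate 2), and Uchl5 (0.46 ± 0.07), Usp14 (0.39 ± 0.07), Usp15 (0.32 ± 0.06) and the modifier Nedd8 (0.29 ± 0.05) also rose. Counterparts of the Isg15 enzymes did not pass: the activating enzymes Uba6 (0.04 ± 0.05) and Uba3 (0.09 ± 0.11), the conjugating enzyme Ube2l3 (0.12 ± 0.06), and the ligases Herc1 (-0.10 ± 0.06), Herc2 (0.13 ± 0.06), Herc3 (-0.00 ± 0.08) and Herc4 (0.10 ± 0.07). The difference between the Isg15 enzymes and these counterparts was not tested.

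**Figure D3:**
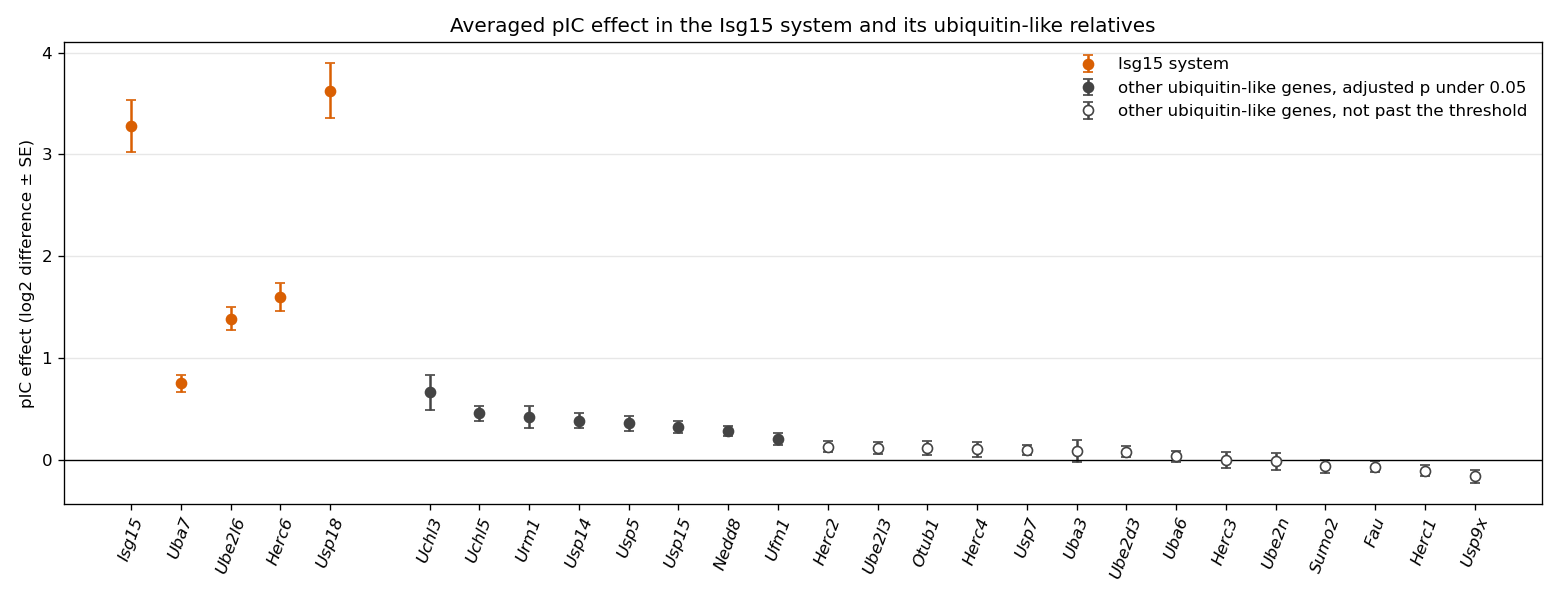
Averaged pIC effect (y axis, log2 difference ± SE) of the 5 Isg15-system genes and of 22 ubiquitin and ubiquitin-like genes (x axis), with filled points for an adjusted p under 0.05. Isg15 (3.28) and Usp18 (3.62) stand highest, Uba7 lies at 0.75, and the other ubiquitin-like genes reach at most 0.66.

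Of 11 genes whose products work with or bear on Isg15 outside that cascade, 5 rose and 0 fell, with a median of 0.17. Without pIC replicate 2, 3 of them were called, against 15.5% of all genes. Trim25, a ubiquitin ligase in RNA sensing, rose by 0.79 ± 0.12, the integrin chain Itgal by 1.22 ± 0.25, the ubiquitin hydrolase Usp24 by 0.25 ± 0.05, and Skp2, a part of a ubiquitin ligase, by 0.29 ± 0.07. Skp2 missed the threshold without pIC replicate 2. Of 19 genes of cap methylation and of the initiation factors that Ifit proteins meet, 8 rose and 0 fell, with a median of 0.16. Without RApIC replicate 3, 5 of them were called, against 18.3% of all genes. Eif3b rose by 0.42 ± 0.06, Eif3c by 0.37 ± 0.06 and Eif3a by 0.26 ± 0.06, all subunits of the factor that Ifit1 and Ifit2 bind, and the cap-binding Eif4e rose by 0.31 ± 0.06. Of 12 genes that, like Isg20, act in the decay of nucleic acids, 7 rose and 0 fell, with a median of 0.27. These included Zc3hav1, which brings RNA decay factors to viral RNA (0.94 ± 0.13), Samhd1, which lowers the nucleotide supply of viruses (0.91 ± 0.13), the RNA-degrading Pnpt1 (0.79 ± 0.11) and the nuclease Aen (0.57 ± 0.08). No gene of these 7 lists, the other Ifit genes included, was called in RApIC against pIC, in ATRA against PBS, in the averaged ATRA effect or in the interaction.

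The genes beside the 10 on their chromosomes were set against them. Of 28 neighbours outside the Ifit family, 6 rose and 5 fell in the averaged pIC effect, where 22.1% of all genes were called in either direction. Their differences ran from -0.85 to 1.78, with a median of -0.02. Serping1, a complement inhibitor gene beside Ube2l6, rose by 1.78 ± 0.34, Agrn beside Isg15 by 1.17 ± 0.13, Tuba8 beside Usp18 by 0.94 ± 0.06, and Aen beside Isg20 by 0.57 ± 0.08. Perm1 (0.42 ± 0.12) and Timm10 (0.39 ± 0.08) also rose. Smtnl1, on the other side of Ube2l6, fell by 0.57 ± 0.06, Plekhn1 by 0.47 ± 0.11, Lipa beside Ifit2 by 0.34 ± 0.06, Pyurf by 0.32 ± 0.08 and Inka1 beside Uba7 by 0.30 ± 0.10. The call of Inka1 was lost on leaving out any 1 array but RApIC replicate 2, that of Perm1 without PBS replicate 3, ATRA replicate 3, RApIC replicate 1 or either pIC array, and that of Pyurf without pIC replicate 1.

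**Figure D4:**
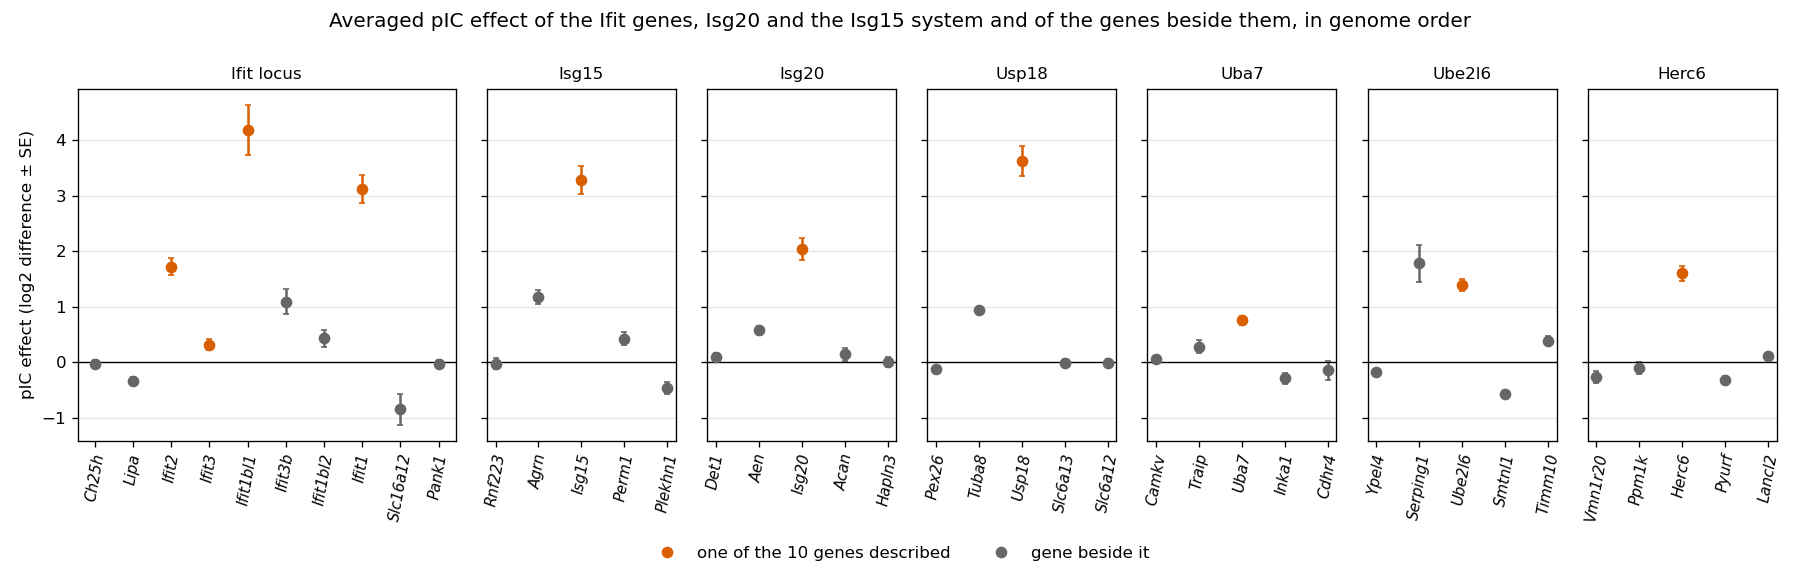
Averaged pIC effect (y axis, log2 difference ± SE) of the 10 genes and of the nearest measured genes beside them (x axis, in genome order and not to scale), with 1 panel per locus. The neighbours outside the Ifit family lie between -0.85 and 1.78, and Serping1 is the highest of them.

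The 5 genes outside the 10 whose profile over the 11 arrays was most like the median profile of the 10 were Xaf1, AW011738, BC147527, Gbp3 and Rnf213, with root mean square differences of 0.124, 0.134, 0.137, 0.141 and 0.149 log2 units, each relative to the PBS mean. The nearest single profile was that of Irf7 for Isg15 (0.257), Zbp1 for Usp18 (0.182), Epsti1 for Ube2l6 (0.0661), Parp12 for Herc6 (0.0923) and Alg3 for Uba7 (0.0732). It was that of Oas3 for Ifit1 (0.26), Helz2 for Ifit2 (0.177), Cenpj for Ifit3 (0.0924), Phf11d for Ifit1bl1 (0.394) and Cmpk2 for Isg20 (0.141). A gene that changes little lies closer to others by this measure, so these differences do not rank the genes.

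For the labelled cell type, all 13 measured HSC markers lay above the array median on every array. So did all 6 measured erythroid and 6 of 7 megakaryocyte markers, so this coarse reading across probe sets does not single out HSCs. The median of the HSC markers relative to PBS was -0.63, -0.20 and -0.51 on RApIC replicates 1, 2 and 3. It was -0.59 and -0.64 on the pIC arrays, and between -0.03 and 0.07 on the ATRA and PBS arrays. Of the 13 HSC markers, 9 fell and 1 rose in the averaged pIC effect, where 22.1% of all genes were called in either direction. The median log2 intensity of the HSC markers was 8.94 to 9.65 in RApIC, 8.95 to 9.02 in pIC, 9.75 to 9.86 in ATRA and 9.83 to 10.22 in PBS. Among 16 T- and NK-cell markers the median relative to PBS was 1.47, 0.04 and 1.23 in RApIC, 0.69 and 1.08 in pIC, 0.05 to 0.22 in ATRA and -0.09 to 0.11 in PBS, with 6 called higher and 1 lower. That total of 7 (22.1% of all genes called) was 15 without RApIC replicate 2 (26.0%) and 3 without pIC replicate 2 (15.5%). The median log2 intensity of that list was 5.77 to 7.57 in RApIC, 6.47 to 7.26 in pIC, 5.98 to 6.17 in ATRA and 5.52 to 6.11 in PBS. On RApIC replicate 2, both this list (0.04) and the median of the 10 genes (1.02 above PBS) were the lowest of all arrays with polyIC. These are medians of 1 array, which stood apart from the other arrays with polyIC. Of 6 erythroid markers 4 rose (median 0.71), with a median log2 intensity of 7.88 to 9.40 in RApIC, 9.67 to 9.94 in pIC, 7.88 to 8.01 in ATRA and 8.28 to 8.44 in PBS. Of 7 megakaryocyte markers 3 rose and 1 fell (-0.16), and of 13 monocyte, macrophage and dendritic markers 1 rose (0.02). None of 9 B-cell markers (0.04) or 10 neutrophil markers (-0.13) was called by limma in that effect. ATRA replicate 1 stood apart in the neutrophil list, with a median of 0.92 relative to PBS against 0.02 and 0.07 on the other ATRA arrays, and Elane, a neutrophil granule protease, read 10.08 there against 6.48 on each of the other ATRA arrays. In RApIC against ATRA 1 neutrophil marker, Prtn3, was called, at -0.65. Without ATRA replicate 1, 9 of the 10 genes were called in RApIC against ATRA (2.68% of all genes) and 0 in ATRA against PBS (0.0135%). The part of other cells in the changes of the 10 genes was not tested.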

How the data were processed

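Values were the series' table of log2 intensities for 41345 probe sets on 11 arrays, as deposited. RNA extraction used a PicoPure kit and a DNase step, and biotin was incorporated by in vitro transcription, per the labels' protocols. The oligo package 1.36.1, RMA and limma 3.28.20 are named, with no role or order, per the submitters' processing notes. RMA corrects background and applies quantile normalisation, which removes global shifts between arrays. No array batch is given in the sources used here.

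The platform's annotation pairs 23521 probe sets with 1 symbol and 1814 with several, and does not list 16010. Gene IDs of 23328 matched RefSeq (GRCm38.p6). A gene with several was represented by its brightest on average (22180 genes, 1082 with more than 1). Group means were fitted with limma 3.58.1 in R 4.3.3 on all 11 arrays (10.72 degrees of freedom with the prior), two-sided, with a threshold of 0.05. The script was tested on simulated data. Python 3.11.15, numpy 2.4.6, pandas 2.3.3 and matplotlib 3.10.9 made the summaries and figures.

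The genes, lists and comparisons were chosen with earlier results of these data known. All 10 genes were named, up to 4 genes per list with the smallest p in the averaged pIC effect, the nearest 2 measured genes on each side, and the genes of most similar profile. Ifi27, Uchl3, Elane, Prtn3 and the Uba, Ube2l and Herc counterparts were named after their values were seen. Alternatives were array weights, cyclic loess scaling, the dimmest 40% of genes left out, the mean of probe sets, each probe set on its own (then the dimmest of each gene), a trend and robust prior, only the groups compared, a replicate block and each array left out.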

Additional observations from a re-analysis of the deposited data

How the results depend on the processing

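Over all genes, the number called over the alternatives was 664 to 4204 in pIC against PBS (3260 as reported), 305 to 4588 in RApIC against ATRA (1599), 70 to 3127 in RApIC against PBS (690), 3447 to 6562 in the averaged pIC effect (4898), 0 to 112 in RApIC against pIC (0), 1 to 28 in ATRA against PBS (1), 1 to 148 in the averaged ATRA effect (9) and 0 to 1 in the interaction (0). The number of the 10 genes called was the same under array weights, cyclic loess scaling, leaving out the dimmest 40% of genes, the mean of probe sets, each probe set on its own and a trend and robust prior, for all 8 comparisons. Each of the 10 genes has 1 probe set, so the probe-set settings could not change their differences and are no check of them. In a fit of only the groups compared it was 2 for RApIC against PBS, where 70 genes in all (0.316%) were called, and 7 for RApIC against ATRA. That fit lost, in RApIC against PBS, Ifit2, Ifit1bl1, Isg15, Isg20, Uba7, Ube2l6 and Herc6 (adjusted p 0.0504 to 0.112). In RApIC against ATRA it lost Ifit1bl1 (0.0676) and Uba7 (0.0563). The same kind of fit kept 9 calls in pIC against PBS. The cause of the lost calls was not tested. Groups share replicate numbers, but same-numbered arrays did not deviate together (15 pairs, correlations -0.109 to 0.0976, 0 over 0.1). With the replicate number as a block, the count was 9 for pIC against PBS, RApIC against ATRA, RApIC against PBS and the averaged pIC effect and 0 elsewhere, where Ifit3 lost its averaged call (0.33, adjusted p 0.0686). Leaving out 1 array gave 9 in pIC against PBS and RApIC against ATRA, 6 to 9 in RApIC against PBS, 9 to 10 in the averaged pIC effect and 0 in the other comparisons. Ifit3's averaged call was lost in 10 alternatives (adjusted p 0.0549 to 0.191).

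Signs turned only among differences that were not called. In ATRA against PBS, array weights gave -0.00388 for Ifit1 and -0.00897 for Uba7, and cyclic loess gave an interaction of 0.0248 for Ifit3. On leaving out 1 array, RApIC against pIC ran from -0.25 to 0.0112 for Ifit3 and -0.63 to 0.0619 for Isg20. ATRA against PBS ran from -0.15 to 0.14 for Ifit1, -0.24 to 0.0147 for Ifit3, -0.16 to 0.0739 for Ifit1bl1, -0.12 to 0.00989 for Isg20 and -0.0388 to 0.0308 for Uba7. The averaged ATRA effect ran from -0.35 to 0.00202 for Isg20, -0.10 to 0.00282 for Uba7 and -0.23 to 0.0146 for Herc6. The interaction ran from -0.35 to 0.13 for Ifit2, -0.15 to 0.12 for Ifit3, -0.77 to 0.0722 for Isg15, -0.58 to 0.12 for Isg20 and -0.78 to 0.17 for Usp18. The turns of the averaged ATRA effect, and those of the interaction for Ifit2, Isg15, Isg20 and Usp18, came only without RApIC replicate 2. So did the turn of Isg20 in RApIC against pIC. The cause of the turns was not tested. Of 2086 alternative counts over the gene lists, 211 moved by more than 1.5 times.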
